A study of Mus musculus with 8 samples.

Results

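The nuclear-encoded subunits of respiratory chain complexes I, III and IV were followed through the LPS response of Furin-deficient and control macrophages. Members were all genes with a symbol starting with Nduf, Uqcr, Cox4, Cox5, Cox6, Cox7 or Cox8, each represented by its brightest probe. This rule used no measured difference between samples, though it was set with earlier results of these data known. The RefSeq table lists 85 such symbols, of which 72 were measured among 37018 genes and transcripts on the arrays. The 13 others are Ndufb1, Ndufb4b and Ndufb4c, which code for proteins, and 10 pseudogenes, and they were not analysed here. All 72 measured members passed the filter on low intensity and were tested. The prefix Nduf also takes in 8 assembly factors (Ndufaf genes), which are not parts of the finished enzyme, and the prefixes take in 8 isoforms and variants known mainly from other tissues. RNA came from resident peritoneal macrophages of C57BL/6 mice, taken by lavage and freed of nonadherent cells after 24 h in culture. KO mice were LysMCre-fur(fl/fl), in which Cre driven by the lysozyme M gene deletes Furin in myeloid cells, and WT mice were littermates. Cells of both genotypes were left unstimulated or given E. coli LPS at 1 μg/ml for 1, 4 or 24 h. Each of these 8 groups has 2 samples, hybridized in pairs of KO and WT on 8 Agilent 2-colour arrays, with KO in Cy5 in replicate 1 and in Cy3 in replicate 2. The age of the mice and the number of mice per RNA sample are not given in the sources used here.

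Complex I passes electrons from NADH to ubiquinone. It has a peripheral arm in the mitochondrial matrix, which holds the flavin and the iron-sulfur clusters, and a membrane arm that pumps protons. Complex III passes the electrons on to cytochrome c, and complex IV, cytochrome c oxidase, passes them to oxygen. Most subunits are encoded in the nucleus and imported, while a few core subunits are encoded in mitochondrial DNA. Nuclear respiratory factor 1 (NRF1) and the ETS factor GABP are known regulators of many of these genes. Macrophages given LPS are known for a turn toward glycolysis and away from mitochondrial respiration.

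Promoters of 58 of the 72 members were found in the RefSeq table (build GRCm38.p6), as windows from 250 bases before to 50 bases after the start of the gene. They were searched on both strands for the NRF1 core GCGCANGCG, the ETS core CCGGAAG, the YY1 core AAGATGGCG, the CRE TGACGTCA and the hypoxia response core ACGTG. Matches of different motifs did not overlap. The NRF1 core was found in 22.4% of the member promoters and in 7.03% of the promoters of all 27025 genes. The ETS core was found in 19% against 9.93%, and the YY1 core in 10.3% against 1.64%. The CRE was found in 6.9% against 2.03%, while the hypoxia response core was found in 19% against 21.8%. Among the 41 genes of this table that were lower after 4 h of LPS in both genotypes, 24.4% held the NRF1 core, 19.5% the ETS core, 7.32% the YY1 core, 4.88% the CRE and 24.4% the hypoxia response core. The 4 promoters below were chosen because they hold matches, marked in capitals, and belong to members with large changes, 3 that fell and 1 that rose. The promoters of the members with the largest falls in WT are not among them, since that of Ndufv3 held only a hypoxia response core and that of Ndufb11 none of the motifs. Ndufs7 (chr10:80249199-80249498, plus strand) holds a YY1 core. Ndufb10 (chr17:24724374-24724673, minus strand) holds an NRF1 core and a hypoxia response core. Uqcr11 (chr10:80406772-80407071, minus strand) holds the hypoxia response, ETS and NRF1 cores in this order. Ndufaf4 (chr4:24897833-24898132, plus strand) holds an NRF1 core that reads on both strands with an offset of 1 base. All are written 5′ to 3′ on the strand of the gene.
Ndufs7: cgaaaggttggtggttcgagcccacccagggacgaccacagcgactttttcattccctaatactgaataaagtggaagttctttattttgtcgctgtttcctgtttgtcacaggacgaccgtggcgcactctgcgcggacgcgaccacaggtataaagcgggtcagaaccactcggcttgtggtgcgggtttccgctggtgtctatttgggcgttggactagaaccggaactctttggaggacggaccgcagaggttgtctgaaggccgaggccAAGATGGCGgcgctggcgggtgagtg
Ndufb10: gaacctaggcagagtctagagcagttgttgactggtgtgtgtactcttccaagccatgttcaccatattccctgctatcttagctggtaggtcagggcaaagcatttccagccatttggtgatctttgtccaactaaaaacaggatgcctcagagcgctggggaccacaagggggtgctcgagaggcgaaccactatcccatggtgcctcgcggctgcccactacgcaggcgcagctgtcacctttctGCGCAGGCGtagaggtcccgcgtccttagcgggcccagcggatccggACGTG
Uqcr11: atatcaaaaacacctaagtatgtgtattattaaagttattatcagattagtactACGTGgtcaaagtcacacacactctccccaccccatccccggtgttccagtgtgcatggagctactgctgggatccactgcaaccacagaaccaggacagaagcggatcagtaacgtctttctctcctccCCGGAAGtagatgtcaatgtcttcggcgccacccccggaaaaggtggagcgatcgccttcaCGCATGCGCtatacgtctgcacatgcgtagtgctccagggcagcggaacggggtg
Ndufaf4: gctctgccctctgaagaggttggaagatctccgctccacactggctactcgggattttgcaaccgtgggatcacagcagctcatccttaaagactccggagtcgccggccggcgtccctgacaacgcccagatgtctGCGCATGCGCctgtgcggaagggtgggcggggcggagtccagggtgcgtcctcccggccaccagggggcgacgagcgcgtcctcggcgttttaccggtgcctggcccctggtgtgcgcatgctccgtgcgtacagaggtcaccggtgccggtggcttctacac
The NRF1 core is thus present both in genes that fell, such as Ndufb10, and in Ndufaf4, which rose.

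Of the 72 members, 68 were well above background in all 16 channels. The other 4, all known mainly from other tissues or conditions, were Ndufa4l2 and Cox7b2 (1 channel each), Cox8b (2 channels) and Cox8c (none). Between 43.8% and 51.3% of spots were well above background per channel, and no spot was saturated. All 7 macrophage markers measured and all 8 markers of large peritoneal macrophages were well above background in all channels, as were all 7 B cell markers. Furin RNA was lower in KO than in WT on both arrays of unstimulated cells (log2 KO/WT of -0.59 and -0.85). The ratios were -0.56 and -0.55 after 1 h of LPS and -0.59 and -0.69 after 24 h. At 4 h its ratios were 0.0012 and 0.33, so the RNA labelled KO at 4 h did not show the deletion. The mean Furin ratio over the 4 time points was -0.44 ± 0.06 (SE, limma adjusted p = 0.0220). The adjusted p at the single times was 0.163, 0.458, 1.00 and 0.185, and with the replicate number as a block 0.0123, 0.0477, 0.725 and 0.0227. Lyz2, the lysozyme M gene that carries Cre, was lower in KO on all 8 arrays, with ratios of -1.04 and -1.13 at 4 h.

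After 4 h of LPS most respiratory chain subunits had fallen in the RNA labelled WT and in that labelled KO, in which Furin was not lower than in WT at this time. In WT cells 49 members were lower and 6 higher than in unstimulated cells, and in KO cells 49 were lower and 5 higher (limma separate-channel fit, adjusted p under 0.05). Of all features tested, 19.3% were lower and 15.5% higher in WT, and 19.7% and 16.2% in KO. Among features well above background in all channels, the kind that nearly all members belong to, 34% were lower and 28.7% higher in WT, and 34.9% and 29.6% in KO. The calls shared by both genotypes were 48 of the lower members and 5 of the higher ones. The median log2 change over the 72 members was -0.61 in both genotypes, while over all features tested it lay within 0.0014 of 0 in both. For 57 members in WT and 55 in KO, both samples at 4 h lay below both unstimulated samples, as for 32.1% and 31.3% of all features tested. The median member intensity on the log2 scale was 13.42 to 13.56 per channel in unstimulated cells and 12.41 to 12.52 at 4 h. LPS comparisons within a genotype share the unstimulated samples, and replicate number and dye cannot be told apart.

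**Figure D1:**
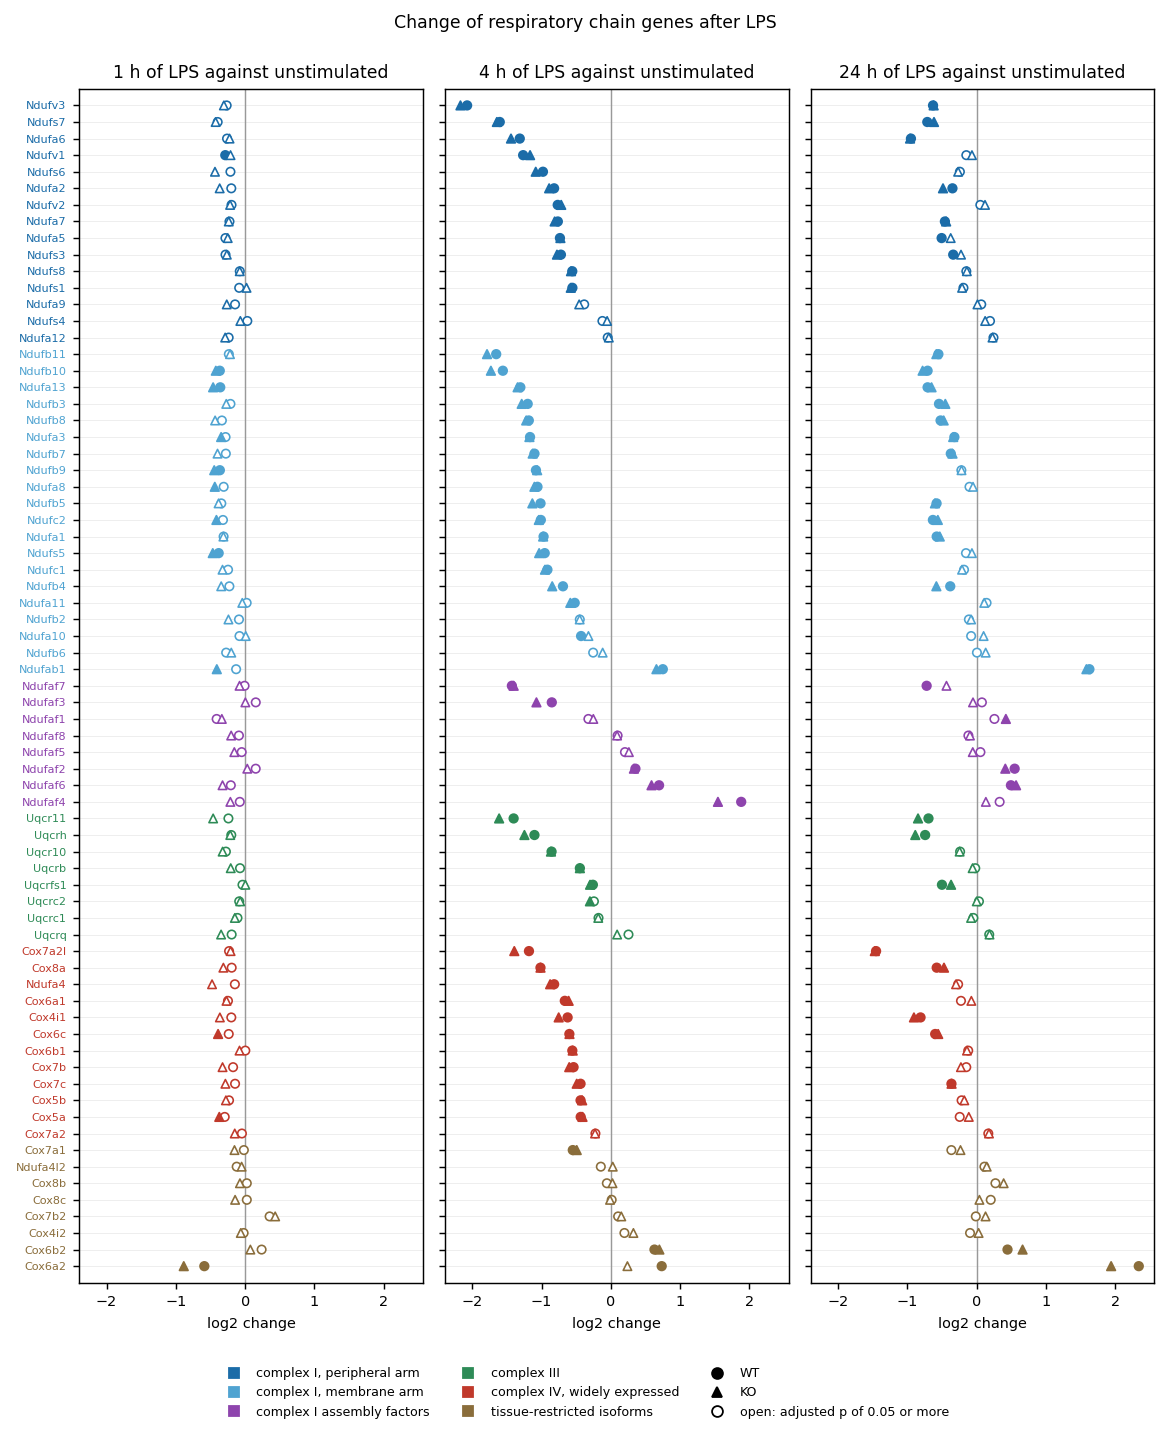
Log2 change against unstimulated cells for the members, all but 1 of them shown, at 1, 4 and 24 h of LPS, grouped by role, with WT as circles, KO as triangles and open symbols where the adjusted p is 0.05 or more. At 4 h most complex I, III and IV subunits lie below 0 in both genotypes and less far from 0 at 24 h, while Ndufaf4 lies above 0 at 4 h and Ndufab1 and Cox6a2 at 24 h.

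The peripheral arm of complex I fell at 4 h in 13 of its 16 measured members in each genotype, with median log2 changes of -0.77 in WT and -0.79 in KO. Ndufv3, an accessory subunit of the NADH-binding module, had log2 intensities in WT of 14.12 and 14.11 unstimulated, 13.86 and 13.83 at 1 h, 12.10 and 11.97 at 4 h, with 13.55 and 13.42 at 24 h. In KO they were 14.19 and 14.04, then 13.82 and 13.79, then 11.86 and 12.02, and 13.50 and 13.49. The 4 h samples of both genotypes were the lowest, with no overlap with any other time. Its log2 change at 4 h was -2.08 ± 0.10 (SE, adjusted p = 1.30e-09) in WT and -2.17 ± 0.10 (adjusted p = 9.02e-10) in KO, the largest fall of any member in either genotype. Ndufs7, the core subunit that holds the last iron-sulfur cluster before ubiquinone, went in WT from 13.88 and 13.99 unstimulated to 12.16 and 12.50 at 4 h and 13.15 and 13.30 at 24 h. In KO it went from 14.07 and 13.74 to 12.26 and 12.26, and then to 13.46 and 13.12. Here too the 4 h samples were the lowest, and those at 24 h lay between them and the unstimulated ones. The change at 4 h was -1.60 ± 0.16 in WT and -1.65 ± 0.16 in KO.

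Other core subunits of this arm also fell at 4 h. Ndufv1, which binds NADH and the flavin, changed by -1.27 in WT and -1.17 in KO, and its partner Ndufv2 by -0.77 and -0.72. Ndufs1, Ndufs3 and Ndufs8 changed by -0.56, -0.72 and -0.56 in WT and by -0.58, -0.78 and -0.58 in KO. Ndufa6, an accessory subunit that binds the acyl carrier protein, fell by 1.32 in WT and 1.44 in KO. The 3 members of this arm not called were Ndufa9, Ndufa12 and Ndufs4, and the log2 changes of Ndufs4, a late-joining accessory subunit, were -0.12 and -0.05.

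The membrane arm of complex I had the lowest medians of the 6 role groups at 4 h, -1.01 in WT and -1.05 in KO, and 17 of its 20 members fell in WT and 16 in KO. Its members among the nuclear genes are accessory subunits, since the proton-pumping core is encoded in mitochondrial DNA. Ndufb11 had log2 intensities in WT of 14.58 and 14.64 unstimulated, 12.94 and 12.97 at 4 h, with 14.11 and 14.00 at 24 h. KO samples gave 14.62 and 14.67, then 12.76 and 12.96, and 14.02 and 14.10. The groups of the 3 times did not overlap in either genotype, and its change at 4 h was 3.15-fold in WT (log2 -1.66 ± 0.09, adjusted p = 7.50e-09). Ndufb10, which has the NRF1 core shown above, went in WT from 14.23 and 14.22 to 12.61 and 12.71 at 4 h, and in KO from 14.32 and 14.18 to 12.48 and 12.56. Its log2 change was -1.56 ± 0.09 in WT and -1.73 ± 0.09 in KO. Ndufa13, also known as GRIM-19, changed by -1.31 and -1.35. The lower members not called in one or both genotypes were Ndufb2, Ndufb6 and, in KO, Ndufa10.

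Ndufab1 went the other way. It is the mitochondrial acyl carrier protein, which takes part in fatty acid and lipoate synthesis as well as in complex I. In WT its log2 intensities were 8.38 and 8.50 unstimulated, 8.32 and 8.29 at 1 h, 9.20 and 9.17 at 4 h, with 10.03 and 10.09 at 24 h. KO samples gave 8.69 and 8.41, then 8.27 and 8.01, then 9.20 and 9.21, and 10.16 and 10.11. The samples at 24 h were the highest in both genotypes, those at 4 h the next. Its change at 24 h was 3.09-fold in WT (log2 1.63 ± 0.11, adjusted p = 9.58e-08) and log2 1.58 ± 0.11 in KO, and at 4 h the log2 change was 0.75 and 0.66. Without the scaling between arrays the changes at 4 h were 0.28 and 0.18 and were not called.

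Of the 8 complex I assembly factors, 3 were called higher and 2 lower at 4 h in each genotype, shares near those of all features well above background. Ndufaf4, which acts with Ndufaf3 in building the peripheral arm, had log2 intensities in WT of 9.72 and 10.04 unstimulated, 9.57 and 10.04 at 1 h, 11.61 and 11.91 at 4 h, with 10.18 and 10.24 at 24 h. The KO values were 10.30 and 10.12, then 10.06 and 9.93, then 11.46 and 12.04, and 10.45 and 10.23. The 4 h samples stood above those of every other time in both genotypes. The change at 4 h was 3.68-fold in WT (log2 1.88 ± 0.20, adjusted p = 2.97e-06) and log2 1.54 ± 0.20 in KO, and the second probe of this gene gave 1.27 and 1.16. At 24 h the log2 changes were 0.33 and 0.13 and were not called, and the second probe gave -0.35 and -0.39. Its partner Ndufaf3 fell by 0.85 in WT and 1.07 in KO at 4 h, and at 24 h its changes were 0.08 and -0.05. Ndufaf7, a methyltransferase, fell by 1.43 and 1.40. Ndufaf6 was called higher at 4 h in WT (0.69) and KO (0.59), but without the scaling between arrays its changes were 0.23 and 0.12 and were not called. Ndufaf2, a relative of Ndufa12, was called higher at 4 h (0.35 and 0.33), but without the scaling between arrays its changes were -0.08 and -0.11. Ndufaf1, Ndufaf5 and Ndufaf8 were not called at 4 h, with log2 changes from -0.33 to 0.26, and the probes of Ndufaf5 differed in sign.

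Complex III had 8 members, of which 5 in WT and 6 in KO were lower at 4 h, with medians of -0.35 and -0.38. Uqcr11, a small accessory subunit, had log2 intensities in WT of 13.97 and 13.92 unstimulated and 12.52 and 12.56 at 4 h, and in KO of 14.19 and 13.69 and of 12.30 and 12.36. All 4 h samples were lower than all unstimulated ones, and the log2 change was -1.40 ± 0.14 in WT and -1.61 ± 0.14 in KO. Uqcrh, the hinge protein that assists contact with cytochrome c, fell by 1.10 and 1.25. Uqcrq, another small subunit, changed by 0.25 and 0.09 (not called). Among the core subunits Uqcrfs1, the Rieske iron-sulfur protein, fell by 0.26 and 0.30, Uqcrc2 changed by -0.25 (not called) and -0.30 (called in KO), and Uqcrc1 by -0.18 in both genotypes (not called).

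Of the 12 widely expressed complex IV subunits, 11 fell at 4 h in each genotype, with medians of -0.58 in WT and -0.60 in KO. Cox7a2l, a factor that joins complexes III and IV into supercomplexes and is present in C57BL/6 mice as a shortened form, had log2 intensities in WT of 15.96 and 15.87 unstimulated, 15.69 and 15.66 at 1 h, 14.77 and 14.68 at 4 h, with 14.45 and 14.47 at 24 h. The KO values were 15.82 and 16.04, then 15.66 and 15.78, then 14.50 and 14.57, and 14.40 and 14.53. In contrast to the complex I subunits above, the samples at 24 h lay below those at 4 h in WT and overlapped with them in KO. The change from 4 to 24 h was not called in either genotype (-0.27 and -0.07), and without the scaling between arrays it was 0.10 and 0.29. Its change at 24 h was 2.74-fold in WT (log2 -1.45 ± 0.10, adjusted p = 1.05e-07) and log2 -1.47 ± 0.10 in KO. Cox4i1, a subunit through which ATP and ADP act on the enzyme, was 15.85 and 15.70 in unstimulated WT cells, 15.24 and 15.06 at 4 h and 14.98 and 14.94 at 24 h. In KO it was 15.78 and 15.81, then 14.96 and 15.12, then 14.84 and 14.93. The log2 change was -0.62 at 4 h and -0.81 at 24 h in WT, and -0.75 and -0.91 in KO. From 4 to 24 h its changes were -0.18 and -0.15, not called, and 0.17 and 0.16 without the scaling between arrays. Cox8a changed by -1.02 in both genotypes at 4 h, and Cox6a1, Cox6b1, Cox6c, Cox7b, Cox7c, Cox5a and Cox5b by -0.41 to -0.67. Cox7a2 was not called (-0.22 and -0.23).

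**Figure D2:**
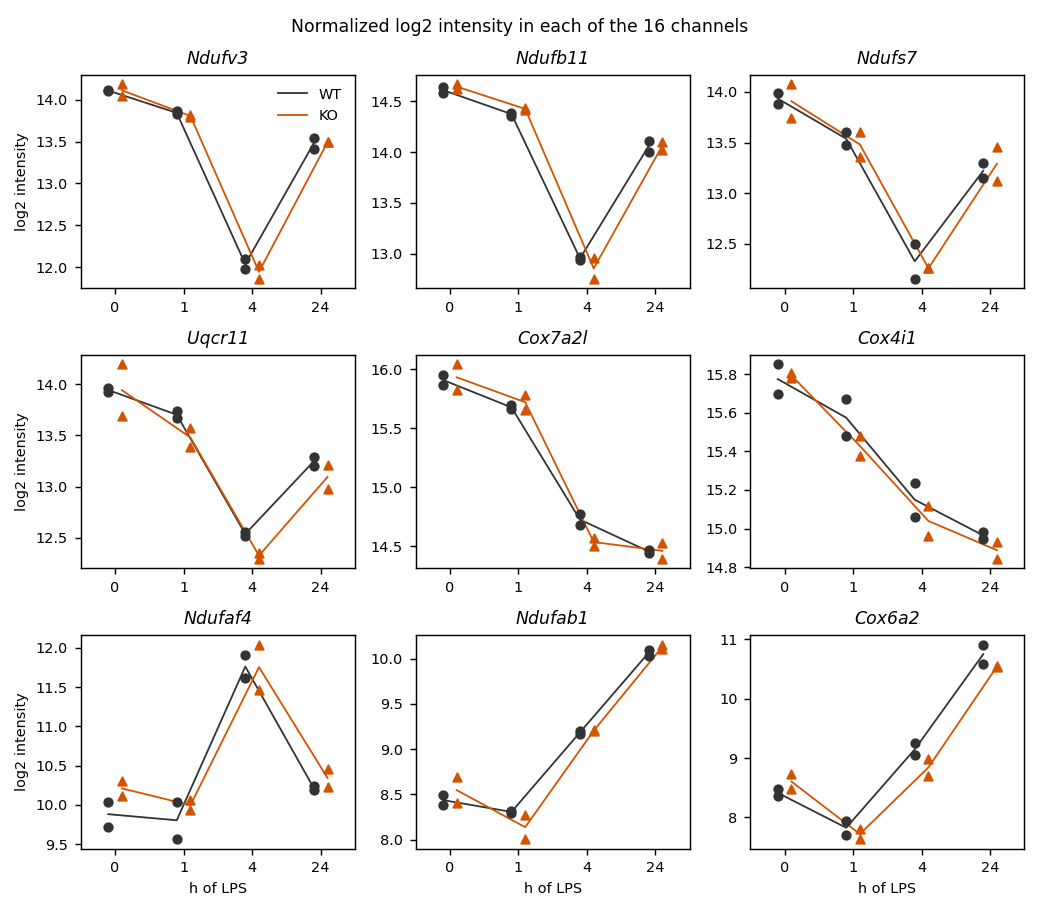
Normalized log2 intensity of 9 members in each of the 16 channels, by hours of LPS, with WT as circles, KO as triangles, lines through the means of the 2 samples per group and a separate axis range per gene. Ndufv3, Ndufb11, Ndufs7 and Uqcr11 are lowest at 4 h, Cox7a2l and Cox4i1 stay low at 24 h, Ndufaf4 is highest at 4 h, and Ndufab1 and Cox6a2 are highest at 24 h.

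Of the 8 tissue-restricted isoforms, 4 were near background, and at 4 h 2 were called higher in WT and 1 in KO and 1 lower in each. These few calls lie near the shares of all features tested, 15.5% higher and 19.3% lower in WT and 16.2% and 19.7% in KO. Cox6a2 is the isoform of subunit 6a known from heart and skeletal muscle. Its log2 intensities in WT were 8.47 and 8.35 unstimulated, 7.94 and 7.70 at 1 h, 9.04 and 9.25 at 4 h, with 10.59 and 10.92 at 24 h. In KO they were 8.74 and 8.47, then 7.64 and 7.80, then 8.98 and 8.70, and 10.56 and 10.53. The lowest samples were those at 1 h and the highest those at 24 h. The change at 24 h was 5.06-fold in WT (log2 2.34 ± 0.15, adjusted p = 3.77e-08) and log2 1.94 ± 0.15 in KO. At 4 h it was 0.73 in WT (called) and 0.24 in KO (adjusted p = 0.264), and without the scaling between arrays 0.26 and -0.23, not called. Cox6a1, the general isoform, changed by -0.23 in WT and -0.08 in KO at 24 h and was not called. Of 10 striated muscle markers, 7 were well above background in no channel and 2 in all, and their summed linear intensity in WT was 1581 to 1867 unstimulated and 1071 to 1105 at 24 h. Cox6b2, known from testis, rose at 4 h by 0.63 in WT and 0.70 in KO, while its counterpart Cox6b1 changed by -0.56 and -0.55. Without the scaling between arrays the Cox6b2 changes at 4 h were 0.19 and 0.26 and were not called. The male germ cell markers, of which 1 of 8 was well above background in all channels, summed in WT to 694.5 to 712.6 unstimulated and 726.8 to 771.7 at 4 h. At 24 h the sums were 942.7 to 1002 in WT and, from 702.7 to 718.6 unstimulated, 1037 to 1277 in KO. Cox6b2 was also called higher at 24 h, by 0.45 in WT and 0.66 in KO. Cox7a1, known from heart and skeletal muscle, fell by 0.55 and 0.49 at 4 h, and Cox4i2, known from lung, changed by 0.19 and 0.32 (not called). Ndufa4l2, Cox7b2, Cox8b and Cox8c gave no call, and their low signals allow no statement on direction.

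From 4 to 24 h of LPS, 40 members rose and 2 fell in WT, and 43 rose and 1 fell in KO, with median log2 changes of 0.39 and 0.41. Of all features tested, 15.1% rose and 14.6% fell between these times in WT, and 15.6% and 15.1% in KO. With loess within arrays alone, 58 members rose in WT and 60 in KO and 1 fell in each, the medians were 0.76 and 0.79, and of all 36928 features tested 8274 rose and 2097 fell in WT and 8322 and 2189 in KO. The peripheral arm and the membrane arm of complex I gave 13 and 15 of the members that rose in WT, and 12 and 17 in KO. Ndufv3 rose by 1.45 and 1.55, Ndufv1 by 1.12 and 1.10, Ndufb11 by 1.10 and 1.21 and Ndufa8 by 0.96 and 1.05. Ndufaf4 fell by 1.55 in WT and 1.41 in KO. The other call in WT, Uqcrfs1, was -0.24, and 0.12 without the scaling between arrays.

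Against unstimulated cells, 28 members were lower and 5 higher at 24 h in WT, and 25 lower and 6 higher in KO. The background was 17% lower and 13.5% higher in WT and 15.9% and 12.7% in KO, and among features well above background in all channels 31.1% lower and 23.9% higher in WT and 29.4% and 22.4% in KO. The median log2 change was -0.20 in WT and -0.19 in KO. This split depended on the scaling between arrays. With loess within arrays alone, 3 members were lower and 12 higher in WT and 5 lower and 12 higher in KO, and the medians were 0.10 and 0.12. Of all 36928 features tested in this setting, 5197 were higher and 4601 lower in WT and 4985 and 4219 in KO. At 4 h the same setting gave 50 lower and 1 higher in WT and 48 lower and 1 higher in KO, with 8589 of all features lower and 3297 higher in WT and 8626 and 3331 in KO, and the median of the features well above background in all channels moved to -0.29 in both genotypes. Among the members lower at 24 h were Cox7a2l, Ndufa6, Cox4i1 and Uqcrh, with log2 changes of -1.45, -0.95, -0.81 and -0.74 in WT and -1.47, -0.96, -0.91 and -0.89 in KO. Without the scaling between arrays these were -1.01, -0.59, -0.38 and -0.30 in WT and -1.05, -0.59, -0.50 and -0.43 in KO, and Cox4i1 in WT and Uqcrh in both were then not called. In this setting Cox6a2 and Ndufab1 changed by 2.44 and 1.71 in WT and 2.05 and 1.67 in KO.

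**Figure D3:**
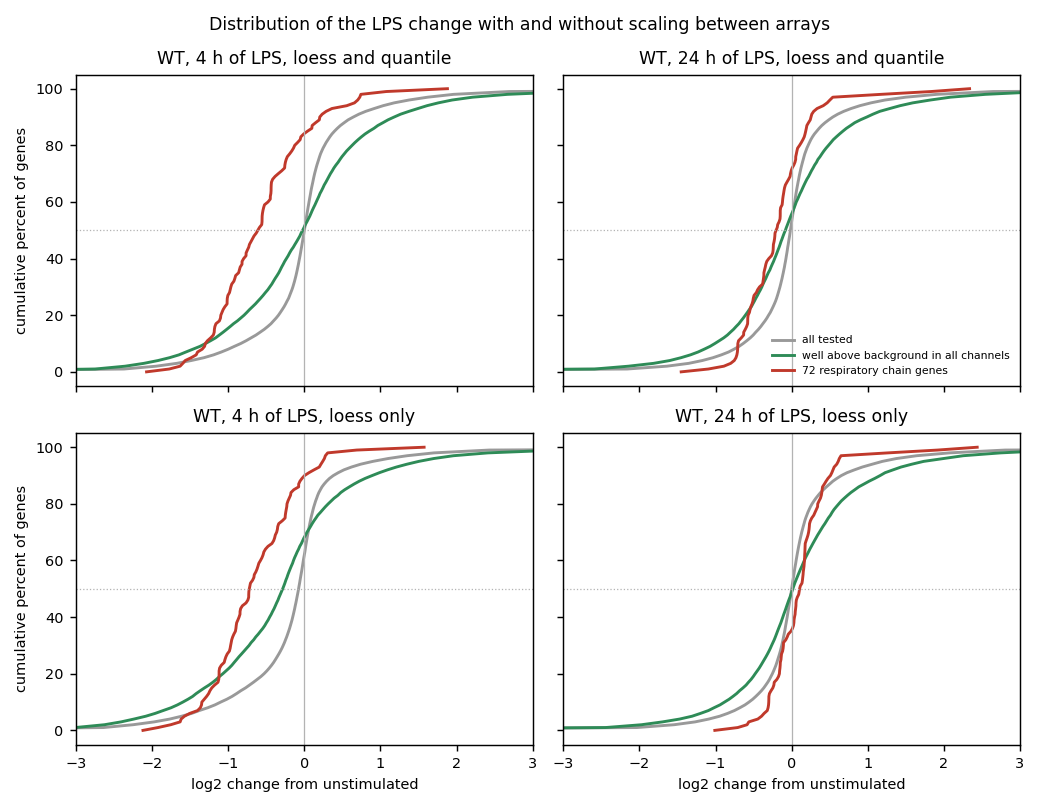
Cumulative share of features by log2 change in WT after 4 and 24 h of LPS, with loess and quantile scaling and with loess alone, for all features tested, features well above background in all channels, and the 72 members. At 4 h the member curve lies left of the others at the median under both settings and crosses them in the lower tail, and at 24 h its median is -0.20 with quantile scaling and 0.10 without.

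At 1 h most members were slightly lower, and few passed the test. The log2 change was below 0 for 63 of the 72 in WT and 65 in KO. Both samples lay below both unstimulated samples for 46 members in WT and 44 in KO, as for 26% and 27.6% of all features tested. In WT 6 were lower and none higher, and in KO 11 were lower and none higher, with medians of -0.20 and -0.27. Of all features tested, 5.12% were lower and 3.38% higher in WT, and 4.35% and 3.09% in KO. A filter kept the 21226 features well above background in both samples of at least 1 group. Of these, 2159 were lower and 1371 higher in WT, and 1901 and 1289 in KO. This filter gave 7 lower members in WT and 17 in KO. Cox6a2 (-0.59 and -0.89), Ndufs5 (-0.38 and -0.47), Ndufb9 (-0.37 and -0.45), Ndufa13 (-0.36 and -0.46) and Ndufb10 (-0.37 and -0.42) were lower in both genotypes. The membrane arm of complex I gave 4 of the lower members in WT and 8 in KO. With loess alone 1 was lower in WT and 4 in KO. The counts also rested on single arrays. In WT no member was lower without either of the unstimulated arrays or without 1 h replicate 2, and 1 was without 1 h replicate 1. In KO 1 was lower without unstimulated replicate 1, 4 and 2 without 1 h replicates 1 and 2, and 6 without either 24 h array.

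Markers of the cells in the lavage were read beside these changes. In bulk RNA, fewer cells of a type and less RNA per cell cannot be told apart. Among features well above background in all channels, 34% were lower and 28.7% higher at 4 h in WT, and 34.9% and 29.6% in KO. At 24 h these shares were 31.1% and 23.9% in WT and 29.4% and 22.4% in KO. Of 7 macrophage markers, 4 were lower at 4 h in WT and 5 in KO, and at 24 h 5 were lower and 1 higher in each. Their summed linear intensity in WT was 488500 to 579200 in unstimulated cells, 240700 to 295000 at 4 h and 180400 to 180600 at 24 h. In KO, where Lyz2 is part of the sum, the ranges were 387900 to 404400, 144700 to 197900 and 123200 to 125600. Of 8 markers of large peritoneal macrophages, 5 in WT and 4 in KO were lower at 4 h, and 7 and 6 at 24 h. Of 7 B cell markers, 2 were higher and 3 lower at 4 h in WT, and 2 higher and 5 lower in KO. Their sums were 66140 to 85820 in WT and 73800 to 107100 in KO unstimulated, and 36710 to 43760 and 28030 to 42410 at 4 h. Of 9 T and NK cell markers, 6 of them well above background in all channels, 1 was higher and 1 lower at 4 h in WT, and 1 higher and 2 lower in KO. Their sums were 13650 to 21740 in WT and 18760 to 21500 in KO unstimulated, and 8592 to 12010 and 9270 to 10220 at 4 h. Of 8 mast cell markers, 7 of them well above background in all channels, 1 was called at 4 h in each genotype. It was Hdc, histidine decarboxylase, with a log2 change of 5.11 in WT, so the sum, 8931 to 12470 unstimulated and 33880 to 47420 at 4 h in WT, rests on a single gene. At 24 h 5 of the mast cell markers were lower and 1 higher in each genotype. Of 7 neutrophil markers, 3 were well above background in all channels and 3 in none, and 2 were higher and 1 lower at 24 h in each genotype. The sum of the neutrophil markers in WT was 4620 to 4768 unstimulated and 23720 to 61080 at 24 h. Of 10 markers of mesothelial cells and fibroblasts, 2 were well above background in all channels. Their sums were 1179 to 1233 in WT and 1230 to 1409 in KO unstimulated, and 2512 to 2742 and 3258 to 3353 at 24 h. The part of all these cells in the changes of the respiratory chain genes was not tested.

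No difference between KO and WT passed the test for any member. None of the 72 was called in unstimulated cells, at 1, 4 or 24 h, or in the mean over the 4 time points (limma on log2 KO/WT ratios), where 0%, 0%, 0.0135%, 0.0244% and 0.566% of all features tested were called. At an unadjusted p under 0.05 the counts were 0 at each time and 4 in the mean, against 5.78%, 5.48%, 4.3%, 3.43% and 10.7% of all features tested. With the replicate number as a block no member was called either, while of the 36947 features tested 391, 212, 209 and 216 were called in unstimulated cells and at 1, 4 and 24 h, and 2212 in the mean. At an unadjusted p under 0.05 the block gave 3, 7, 3 and 0 members at these times and 12 in the mean. The same threshold gave 4097, 4129, 3286, 2834 and 6604 of the 36947 features tested. The RNA labelled KO at 4 h did not show lower Furin, which limits genotype comparisons at 4 h and the mean over times. In the mean without the 4 h arrays no member was called, against 82 of all features. There 3 members had an unadjusted p under 0.05, against 3664 of all features. The member ratios on single arrays ranged from -0.55 to 0.58 on the log2 scale. The median 95% confidence interval reached 0.26 to either side at a time point and 0.13 for the mean over times, and no interval at any time point went beyond -0.65 or 0.72. The median ratio over members on the arrays of replicates 1 and 2 was 0.10 and -0.13 in unstimulated cells, -0.0033 and -0.13 at 1 h, -0.02 and -0.04 at 4 h, with 0.05 and -0.04 at 24 h. It was lower in replicate 2 at each time, the replicate with KO in Cy3.

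**Figure D4:**
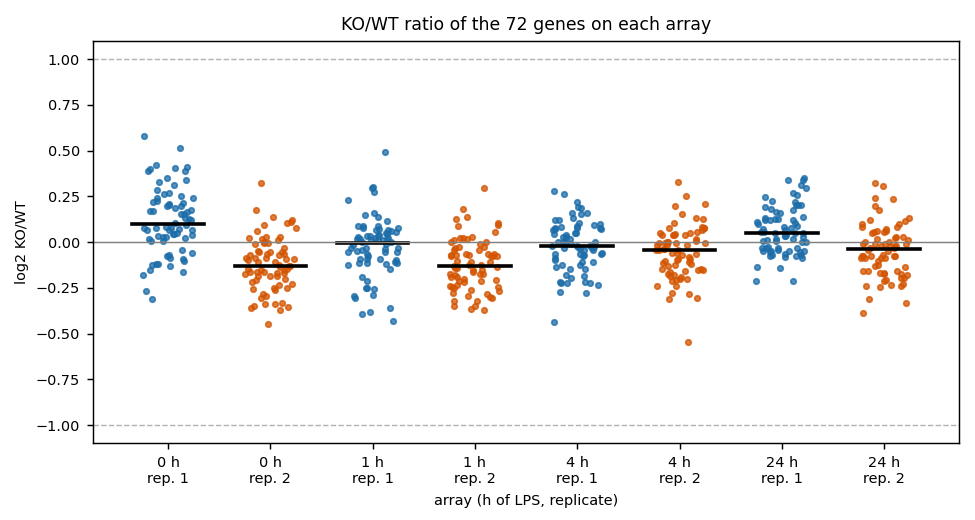
Log2 KO/WT of the 72 members (points) on each of the 8 arrays, with the median as a bar and dashed lines at -1 and 1. The points lie between -0.55 and 0.58, and the medians between -0.13 and 0.10.

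The 3 members with the largest ratios of the same sign on both arrays were taken at each time. In unstimulated cells they were Ndufaf4 (0.33), Ndufa10 (-0.23) and Ndufaf7 (-0.21), and at 1 h Ndufaf7 (-0.28), Cox8a (-0.23) and Uqcr11 (-0.22). At 4 h they were Cox6a2 (-0.30), Ndufs4 (0.21) and Uqcr11 (-0.21), and at 24 h Cox6a2 (-0.21), Cox6b2 (0.17) and Ndufaf1 (0.15). None of these passed the test. Ndufv1, a core subunit of the peripheral arm, was 1 of 2 members with KO below WT on all 8 arrays, with ratios of -0.18 to -0.03 and a mean of -0.10 (adjusted p = 0.435). The LPS response itself was compared between genotypes as the change of the ratio from unstimulated cells. No member was called at 1, 4 or 24 h, as for 0% of all features tested. With the replicate number as a block no member was called, and of all features 0, 12 and 78 at these times. In the unblocked fit, at an unadjusted p under 0.05, there was 1 member, Cox6a2 at 4 h (log2 difference of -0.50), against 1.39%, 2.9% and 3.33% of all features tested at 1, 4 and 24 h. The call of Cox6a2 at 4 h in WT alone is therefore not shown to differ between genotypes.

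Other parts of the respiratory chain were read from lists fixed with earlier results known. At 4 h, 34% of features well above background in all channels were lower and 28.7% higher in WT, and 34.9% and 29.6% in KO. Complex II, which passes electrons from succinate to ubiquinone and was represented by 4 genes, fell at 4 h in 4 of 4 in both genotypes, with medians of -1.03 and -0.97, and Sdhb, its iron-sulfur subunit, changed by -1.41 and -1.25. The list of ATP synthase and its regulators held 39 symbols, of which 19 were measured. Of these 19 genes, 14 fell and none rose in each genotype, with medians of -0.76 and -0.79. Atpif1, the inhibitor of ATP hydrolysis by this enzyme, changed by -1.67 in WT and -1.75 in KO, and Atp5c1, its central stalk subunit, by -1.28 and -1.33. Cytochrome c (Cycs), which carries electrons from complex III to IV and also serves in apoptosis, rose. Its log2 intensities in WT were 12.79 and 12.85 unstimulated, 14.69 and 14.59 at 4 h, with 14.57 and 14.63 at 24 h, and in KO 13.07 and 13.09, then 14.59 and 14.81, then 14.69 and 14.65. All LPS samples of 4 and 24 h were above all unstimulated ones, and the log2 change at 4 h was 1.82 ± 0.10 in WT and 1.62 ± 0.10 in KO. Cyc1, the cytochrome of complex III that hands electrons to it, changed by -0.08 and -0.13.

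Of 35 further assembly factors, 11 rose and 14 fell in WT at 4 h, and 11 rose and 17 fell in KO. For WT this is near the 28.7% higher and 34% lower among all features well above background. In KO these background shares were 29.6% and 34.9%, and the 17 of 35 that fell are a larger share. The largest falls were those of Uqcc3 (-2.37 and -2.40), which acts in complex III assembly, Surf1 (-2.001 and -2.18), which acts in complex IV assembly, and Higd2a (-1.74 and -1.78). Of 14 regulators of these genes, 5 rose and 2 fell in WT and 4 rose and 2 fell in KO. The shares that rose are near those of all features well above background, and the shares that fell are smaller. Gabpb1, a subunit of GABP, changed by 1.09 and 1.16, Ppargc1b, a coactivator, by -0.98 and -0.56, and Pparg, a nuclear receptor, by -1.87 and -2.15.

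Ndufa4 and its relative AA467197 showed unlike responses. Ndufa4, now counted as a subunit of complex IV, had log2 intensities in WT of 12.61 and 12.89 unstimulated, 11.82 and 12.05 at 4 h and 12.34 and 12.63 at 24 h. In KO they were 13.13 and 12.71, then 12.08 and 12.01, and then 12.69 and 12.56. Its log2 change at 4 h was -0.82 ± 0.16 in WT and -0.88 ± 0.16 in KO. AA467197, also known as Nmes1, codes for a relative of Ndufa4 and hosts the microRNA miR-147. In WT it was 7.75 and 7.83 unstimulated, 8.73 and 8.97 at 1 h, 14.34 and 14.47 at 4 h, with 14.45 and 13.85 at 24 h. In KO it was 7.98 and 8.03, then 8.94 and 8.94, then 14.77 and 14.61, then 14.08 and 14.29. It was higher in every LPS sample than in every unstimulated one, with log2 changes at 4 h of 6.61 ± 0.16 (adjusted p = 5.64e-12) and 6.68 ± 0.16. The 1 h samples stood between the unstimulated ones and those of 4 and 24 h. Genes encoded in mitochondrial DNA were not analysed here, so the nuclear subunits could not be set beside them.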

How the data were processed

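RNA of 16 samples was hybridized on 8 Agilent 2-colour arrays with 62976 spots, on 1 slide. The authors extracted spot intensities with Agilent Feature Extraction 10.7.3, and the deposited scanner files hold unnormalized median intensities (means, which had been planned, were replaced by them) and processed intensities. The matrix deposited by the authors holds log2 ratios of Cy5 to Cy3, normalized by loess and quantile in limma. It correlated with log2 ratios of the processed scanner intensities (r from 0.665 to 0.746). Its slopes on the normalized log2 ratios computed here were 0.923 to 1.04, and its column medians 0.0061 to 0.011. The matrix served as an alternative, with its centring unknown. Groups came from the sample titles, since the growth protocol names 4 h of LPS throughout.

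In R 4.3.3 with limma 3.58.1, median intensities were corrected by normexp (offset 50), normalized by loess within and quantile between arrays, and averaged per probe. Outlier spots were left out, among them 1 spot of a member on the array of unstimulated replicate 1, so the fits used the remaining values. Of 55681 gene probes, 27509 were named through RefSeq identifiers. Each gene was read from its brightest probe, and 57 members had 1 probe and 15 several. In 2 genes, Cox7c and Ndufaf5, probes differed in sign of the WT change at 4 h. The fits took in features whose mean log2 intensity reached 6. KO against WT was fitted on log2 ratios with lmFit and eBayes (36947 features, 4 residual degrees of freedom), LPS effects with the separate-channel fit (36927 features, within-spot correlation 0.116, statmod 1.5.0), and p-values were adjusted by Benjamini-Hochberg, with a threshold of 0.05. In the report, ± is the SE of the fit over 2 samples per group. The replicates are described as biological, but the number of mice behind each RNA is not given in the sources used here, so p-values measure the spread between these samples, and the number of arrays limits the precision.

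Differences between replicates correlated across genes between all pairs of times. The r was 0.475 to 0.679 for log2 KO/WT, 0.214 to 0.565 for single channels and 0.129 to 0.253 for mean array intensity. Replicate number goes with dye orientation, so a pairing of samples and an effect of dye cannot be told apart here. On simulated data with 36927 features, 100 were changed at each size, and no effect of replicate or dye was simulated. The fit then called 81% of LPS changes of 1 and 22% of changes of 0.5 (log2) in WT at 4 h. Of such changes between KO and WT at 4 h it called 79% and 2%. In the real data far more features were called after 4 h of LPS, so the simulated LPS shares do not carry over to them.

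Members, lists and tests were chosen with earlier results of these data known, and the 6 role groups were set after the values were seen. Values of 1 member are not reported here by name, though it is part of all counts. Named are, for each LPS comparison, up to 5 members with the largest rise and 5 with the largest fall among those called, the 3 largest KO/WT ratios of constant sign at each time, isoform pairs, core subunits, assembly factors, and up to 3 called genes of each other list. Other genes named, such as Ndufa9, Ndufa12, Ndufb2, Ndufb6, Cox6c and Hdc, were chosen after their values were seen. The alternatives were the processed signals, other normalizations and filters, a dye term, the replicate block, the methods' t-test, the authors' ratios and leaving out arrays. The mean KO/WT ratio without the 4 h arrays was added later.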

Additional observations from a re-analysis of the deposited data

How the results depend on the processing

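Under the alternatives the fall of the members at 4 h kept its direction, and no member was called between KO and WT. With loess within arrays alone, the members lower at 1 h were 1 in WT and 4 in KO, those higher at 4 h 1 in each, and the 4 h median in WT was -0.72. At 24 h this setting gave 12 higher and 3 lower in WT and 12 higher and 5 lower in KO, and the medians turned to 0.10 and 0.12. From 4 to 24 h its medians were 0.76 and 0.79, with 1 member lower in WT, and Uqcrfs1 changed by 0.12 in WT. Ndufaf2 changed by -0.11 in KO at 4 h. The cause was not tested. The 4 h median in WT was -0.62 with the processed signals and with Aquantile (quantile scaling of each spot's mean intensity), and -0.68 with the filter on background, which gave 17 lower in KO at 1 h. A dye term gave 1 higher and 21 lower there. The methods' t-test after Benjamini-Hochberg, which uses 2 values per group, gave 0 lower at 1 h in both genotypes, 1 higher and 13 lower at 4 h in WT and 0 of each in KO, 0 of each at 24 h in WT, 0 higher and 2 lower in KO, and 0 of each from 4 to 24 h. Its unadjusted counts at 1, 4 and 24 h were 21, 52 and 35 in WT and 14, 39 and 22 in KO. Among all features tested they were 4851, 11474 and 10290 in WT and 5055, 10485 and 9995 in KO. The replicate block changed no call between KO and WT among the members and added 1 lower member at 4 h (50 in each genotype) and 1 at 24 h in WT (29). When each array was left out in turn, the lower members at 1 h were 0 to 5 in WT and 1 to 13 in KO, and the higher ones 0 to 1 in both. The 1 h medians were -0.23 to -0.16 and -0.37 to -0.17. The 4 h median in WT was -0.65 to -0.59. At 24 h in WT 18 to 28 were lower, with 18 without 24 h replicate 1, and the medians were -0.22 to -0.14 in WT and -0.30 to -0.0674 in KO. From 4 to 24 h in WT 1 was lower, and the median was 0.34 to 0.46. The median KO/WT ratio at 4 h was -0.0533 to -0.0216. Its change from unstimulated cells was -0.21 to 0.0398 at 1 h, -0.14 to 0.092 at 4 h and -0.11 to 0.14 at 24 h, and so changed sign at each time. In these fits a lone sample is assumed to vary like the other groups.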
